A study of Mus musculus with 9 samples.

Results

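The interferon response genes described here are Irf7, Irf9, Stat2, Isg15, Usp18, Ifit1, Ifit3, Oasl2 and Rsad2. They were taken by gene symbol from the count tables of cultured mouse embryonic ovaries, where they are 9 of 23420 genes, and all 9 had enough counts to be tested. Ovaries of wild-type CD1 embryos, collected on embryonic day 16, were cultured for 24 hours in 3 groups, with 3 RNA-seq libraries each: BMP2 (recombinant human protein, 50 ng/ml), E2 (estradiol-17β, 3.67 µM) and vehicle. Groups rest on the start of each library's title, with B2 read as BMP2 and C read as vehicle, since no label field states the treatment. All 3 groups shared a phenol red-free medium with insulin, transferrin, selenium and linoleic acid, and whole ovaries were used, so a value is an average over every cell type of the organ. Gene counts summed to between 33360565 and 34320077 per library with BMP2, 30418674 and 31778161 with E2, and 30860223 and 34253992 with vehicle. Levels are in CPM, read counts scaled to a common library size with TMM factors, and are given with the SD over 3 libraries. Nothing in the labels shows that the libraries of one group are separate cultures or animals. All titles carry one further code, the same in every group, that is not explained. Spread between libraries of a group beyond counting error was small, with a common coefficient of variation of 1.87% in edgeR. Every p-value therefore measures spread between libraries that may be technical replicates. A difference between groups may then be one between single cultures.

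Type I interferons bind a receptor made of IFNAR1 and IFNAR2, which switches on the kinases JAK1 and TYK2. These phosphorylate STAT proteins, among them STAT2, which joins IRF9 in the complex ISGF3. That complex binds the interferon-stimulated response element in promoters of antiviral genes and raises their transcription. Many of these genes are also transcribed at a low level in unstimulated tissue, where STAT2 and IRF9 help to set that level. In the ovary, interferon-responsive genes are known from infection and from immune cells, among other settings.

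Since ISGF3 acts through an element in promoters, that element was looked for in the 250 bases before each RefSeq start. The genes were chosen by name as interferon response genes, so the share that holds it describes them and tests nothing. RefSeq promoters (build GRCm38.p6) were at hand for 8 of the 9 genes, and Usp18 was not searched. The core of the element is a pair of GAAA separated by any 2 bases, on either strand. It was in promoters of 5 of these 8 genes, and of 3.46% of all 27025 genes with a promoter entry. It is shown in capitals, as written or as its reverse complement with TTTC, in the 5 promoters that hold it. Each is printed 5′ to 3′ on the strand of its gene and ends 1 base before the start site or, for Ifit1, before the most upstream annotated start.
Stat2, chr10:128270248-128270497, plus strand: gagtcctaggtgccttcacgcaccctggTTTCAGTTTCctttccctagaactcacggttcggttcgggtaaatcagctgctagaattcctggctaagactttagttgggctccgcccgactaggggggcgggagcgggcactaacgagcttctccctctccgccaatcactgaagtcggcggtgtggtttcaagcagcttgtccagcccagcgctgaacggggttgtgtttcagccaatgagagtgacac
Isg15, chr4:156200819-156201068, minus strand: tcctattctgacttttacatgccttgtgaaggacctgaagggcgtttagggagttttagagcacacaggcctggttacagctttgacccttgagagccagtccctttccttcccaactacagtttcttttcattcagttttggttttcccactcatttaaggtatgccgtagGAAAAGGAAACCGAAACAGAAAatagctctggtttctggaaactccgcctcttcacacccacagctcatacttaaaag
Ifit1, chr19:34640639-34640870, plus strand: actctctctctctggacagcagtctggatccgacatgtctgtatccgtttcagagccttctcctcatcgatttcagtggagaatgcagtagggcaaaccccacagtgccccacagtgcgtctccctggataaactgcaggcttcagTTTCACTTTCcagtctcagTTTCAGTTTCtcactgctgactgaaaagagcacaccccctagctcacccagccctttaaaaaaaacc
Ifit3, chr19:34583279-34583528, plus strand: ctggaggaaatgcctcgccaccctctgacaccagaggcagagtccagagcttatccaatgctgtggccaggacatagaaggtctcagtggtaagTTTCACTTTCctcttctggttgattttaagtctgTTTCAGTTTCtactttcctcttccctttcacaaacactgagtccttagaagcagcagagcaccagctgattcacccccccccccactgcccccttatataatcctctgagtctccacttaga
Rsad2, chr12:26456453-26456702, minus strand: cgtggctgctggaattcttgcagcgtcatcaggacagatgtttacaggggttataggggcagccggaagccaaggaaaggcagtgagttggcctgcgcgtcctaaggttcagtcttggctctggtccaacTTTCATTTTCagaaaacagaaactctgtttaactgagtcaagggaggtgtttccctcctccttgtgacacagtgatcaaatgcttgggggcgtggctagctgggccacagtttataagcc

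Distances are counted from the RefSeq start, which for Ifit1 lies beyond 18 further bases that are not printed. Stat2 held 1 match, 222 bases before its start. Isg15 held 3 overlapping matches in a run that began 78 bases before its start. Ifit1 held 2 matches, 104 and 85 bases upstream, and Ifit3 also held 2, at 156 and 122 bases. Rsad2 held 1, at 120 bases. These letters were not in the windows of Irf7, Irf9 and Oasl2. The windows of Irf9 lie inside its annotated span, and that of Irf7 reaches into it. Bases before the most upstream annotated start were thus not searched for Irf9, and only in part for Irf7. The gamma-activated site TTCNNNGAA, an element of the response to interferon gamma, was in promoters of 8.13% of all genes with an entry. The oestrogen response element, GGTCA and TGACC separated by any 3 bases, was in those of 0.07%. Neither was in the window of any of the 8 genes. Of 97 other interferon pathway genes with a promoter entry, 28 held the response element.

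All 9 genes were transcribed in every library, from 6.20 CPM (Ifit3 with BMP2) to 70.9 CPM (Oasl2 with BMP2). Oasl2 and Rsad2 were higher with BMP2 than with vehicle. Stat2, Ifit3 and Rsad2 were higher and Irf9 was lower with E2 than with vehicle, and the other values did not pass the test in these 2 comparisons. A gene was called where edgeR's quasi-likelihood F test gave an adjusted p under 0.05, with Benjamini-Hochberg adjustment over 16360 genes. With BMP2 against vehicle, 2 of the 9 genes were higher and 0 were lower, where 13.7% of all genes tested were called, 6.84% higher and 6.85% lower. With E2 against vehicle, 3 were higher and 1 was lower, where 32.3% of all genes were called, 15.8% higher and 16.5% lower. Between BMP2 and E2 themselves, 2 were higher and 2 lower with BMP2, where 28.2% of all genes were called, 14.1% higher and 14.0% lower. The libraries of the compared groups did not overlap for 4 of the 9 genes in each comparison with vehicle and for 5 in BMP2 against E2. Over all genes tested that share was 28.0% for BMP2 against vehicle, 41.2% for E2 against vehicle and 39.6% for BMP2 against E2. The median log2 fold change of the 9 genes was 0.06 for BMP2 against vehicle, 0.12 for E2 against vehicle and -0.04 for BMP2 against E2, against medians of -0.0015, -0.0026 and 0.0014 over all genes tested. Both treatments were compared with the same vehicle libraries, so their values stand side by side and are not independent. In whole ovaries, fewer cells of a type and less RNA per cell cannot be told apart. Summed macrophage markers were also lower with E2, at 135 to 138 CPM per library against 157 to 160 CPM with vehicle, and their part in these results was not tested.

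**Figure D1:**
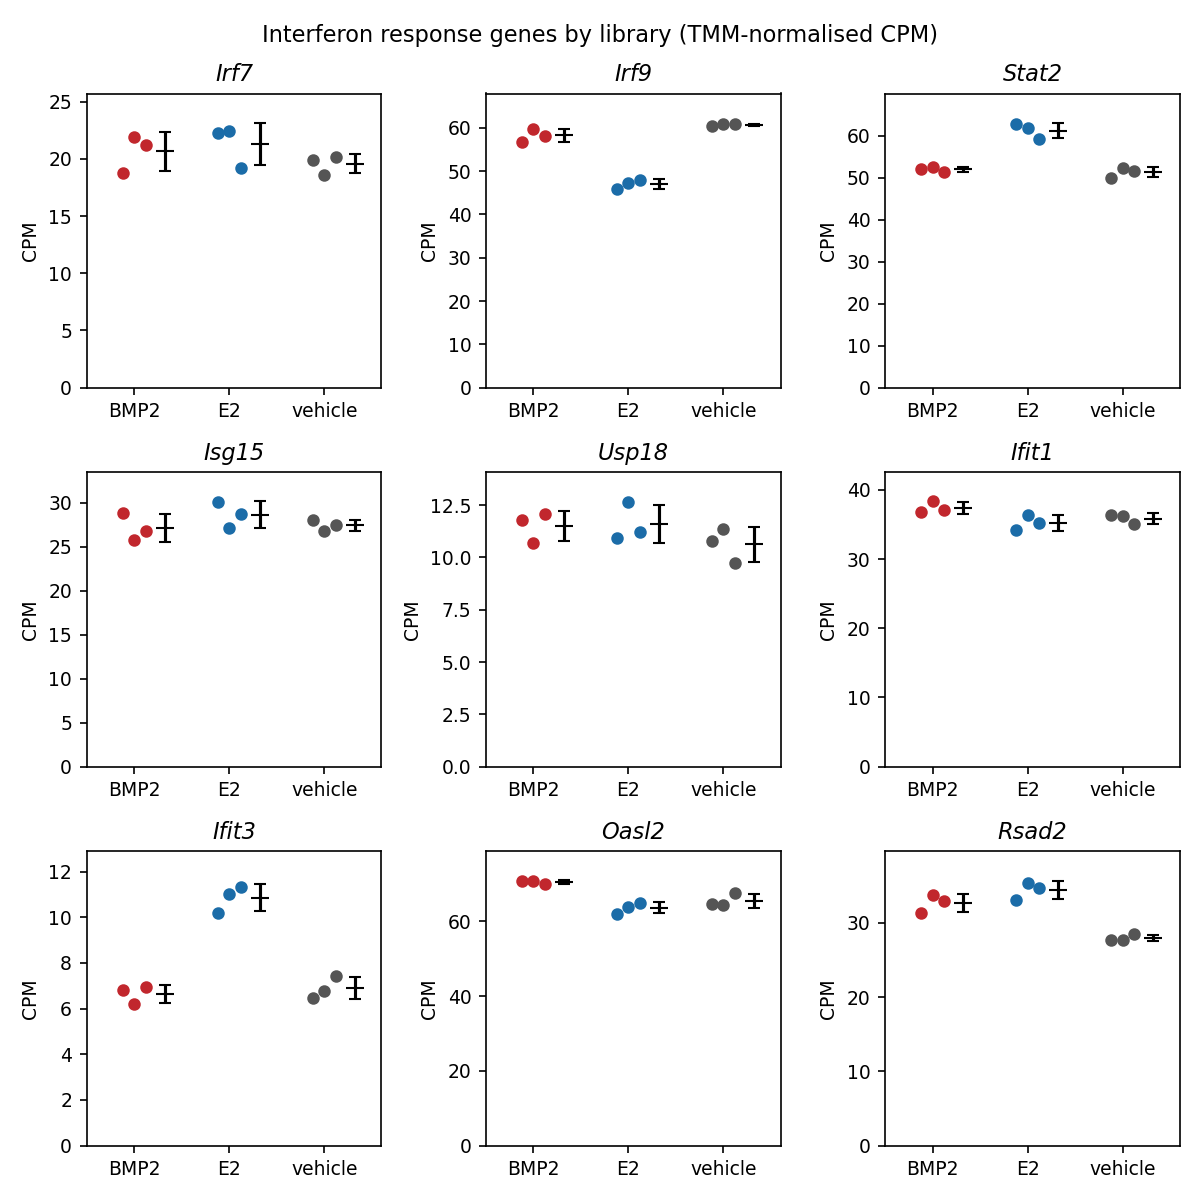
TMM-normalised CPM (y axes, from 0) of the 9 interferon response genes in each library, as points for BMP2, E2 and vehicle, with the mean and SD (n = 3) as bars beside them. The E2 points of Irf9 lie below all others, and those of Stat2 and Ifit3 above all others, while the vehicle points of Rsad2 lie below all others.

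The 3 regulators in the set did not move together. IRF7, at chr7:141262706-141266481 on the minus strand, is the interferon regulatory factor that amplifies interferon gene transcription. Irf7 had 18.8, 21.9 and 21.2 CPM with BMP2, 22.3, 22.5 and 19.2 CPM with E2, and 19.9, 18.6 and 20.1 CPM with vehicle. The groups overlapped. Its log2 fold change was 0.08 ± 0.058 (SE) for BMP2 (edgeR adjusted p = 0.441) and 0.12 ± 0.058 for E2 (edgeR adjusted p = 0.104). The E2 value turned on its lowest library: without E2 replicate 3 it was 0.19 and passed (edgeR adjusted p = 0.0135).

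IRF9, the DNA-binding subunit of ISGF3, fell with E2. Irf9, at chr14:55603571-55610030 on the plus strand, had 45.8, 47.2 and 48.1 CPM with E2 and 60.3, 60.9 and 60.9 CPM with vehicle. Every E2 library was below every vehicle library, and the means were 47.0 ± 1.13 and 60.7 ± 0.312 CPM. That is a fall by 0.37 ± 0.036 on the log2 scale, or 1.29-fold (edgeR adjusted p = 4.5e-17). With BMP2, Irf9 had 56.8, 59.8 and 58.2 CPM. These libraries also all lay below the vehicle libraries, but the log2 fold change of -0.06 ± 0.034 did not pass (edgeR adjusted p = 0.28). An absence of overlap is common in this comparison, as the 28.0% of all genes given above shows.

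STAT2, the partner of IRF9 in ISGF3, moved the other way with E2. Stat2, at chr10:128270559-128292849 on the plus strand, had 62.6, 61.7 and 59.1 CPM with E2 and 50.0, 52.2 and 51.6 CPM with vehicle. The lowest E2 library stood above the highest vehicle library, with means of 61.2 ± 1.82 and 51.2 ± 1.15 CPM. Stat2 was 1.19-fold higher with E2, a log2 fold change of 0.26 ± 0.036 (edgeR adjusted p = 6.6e-10). With BMP2 it had 52.0, 52.5 and 51.4 CPM, which overlapped vehicle, and its log2 fold change was 0.02 ± 0.036 (edgeR adjusted p = 0.773).

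Because Irf9 and Stat2 encode partners of one complex, their counts were also set against each other within each library, where depth cancels. The ratio of Irf9 to Stat2 counts was 0.731, 0.765 and 0.813 with E2, against 1.21, 1.17 and 1.18 with vehicle. Irf9 counts were thus below Stat2 counts in every E2 library and above them in every vehicle library. With BMP2 the ratio was 1.09, 1.14 and 1.13. Every comparison of this ratio between groups gave p = 0.1 in a two-sided exact permutation test, the smallest p that 3 against 3 allows. All 6 such tests, of this ratio and of the one of Ifit3 below, gave that p, so adjustment over them leaves 0.1. These ratios use counts that were also tested gene by gene, so they add no separate support.

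Neither gene of the ISG15 system passed in any comparison. ISG15 is a ubiquitin-like protein that is attached to other proteins after interferon. Isg15, at chr4:156199424-156200818 on the minus strand, had 28.8, 25.8 and 26.8 CPM with BMP2, 30.1, 27.1 and 28.7 CPM with E2, and 28.0, 26.7 and 27.5 CPM with vehicle. Its groups overlapped throughout, with log2 fold changes of -0.01 ± 0.049 for BMP2 (edgeR adjusted p = 0.894) and 0.06 ± 0.049 for E2 (edgeR adjusted p = 0.365). USP18 removes ISG15 from its targets and damps signalling at IFNAR2. Usp18, at chr6:121245906-121270917 on the plus strand, had 11.8, 10.7 and 12.1 CPM with BMP2, 11.0, 12.6 and 11.2 CPM with E2, and 10.8, 11.3 and 9.73 CPM with vehicle. The groups overlapped here too. Its log2 fold changes were 0.12 ± 0.075 for BMP2 (edgeR adjusted p = 0.343) and 0.13 ± 0.076 for E2 (edgeR adjusted p = 0.198). Exons of Usp18 overlap Gm44148 on the other strand over 4.44% of their length, and the library kit does not mark strand.

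Of the 4 antiviral effectors, Rsad2 was the one called with both treatments. RSAD2, also called viperin, is an enzyme that makes a nucleotide which stops viral RNA synthesis. Rsad2, at chr12:26442746-26456452 on the minus strand, had 31.4, 33.7 and 32.9 CPM with BMP2 and 33.1, 35.4 and 34.7 CPM with E2, against 27.7, 27.7 and 28.5 CPM with vehicle. All 6 treated libraries lay above all 3 vehicle libraries. Rsad2 rose 1.17-fold with BMP2, a log2 fold change of 0.22 ± 0.046 (edgeR adjusted p = 9.5e-05). It rose 1.23-fold with E2, a log2 fold change of 0.30 ± 0.046 (edgeR adjusted p = 2.3e-08). The divergent neighbour Cmpk2, an interferon-induced kinase of nucleotides that was named after its values were seen, had 17.4 ± 0.144 CPM with BMP2, 17.1 ± 0.843 CPM with E2 and 16.4 ± 0.418 CPM with vehicle. Its log2 fold changes were 0.09 ± 0.060 for BMP2 (edgeR adjusted p = 0.401) and 0.06 ± 0.061 for E2 (edgeR adjusted p = 0.532).

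Oasl2, of the oligoadenylate synthetase family of antiviral proteins, was higher with BMP2. Oasl2, at chr5:114896936-114912234 on the plus strand, had 70.9, 70.9 and 70.0 CPM with BMP2 and 64.6, 64.3 and 67.6 CPM with vehicle. The groups did not overlap, and the rise was 1.08-fold, a log2 fold change of 0.11 ± 0.032 (edgeR adjusted p = 0.0126). This call rested on single vehicle libraries: it was lost without vehicle replicate 1 (edgeR adjusted p = 0.0757) and without vehicle replicate 2 (edgeR adjusted p = 0.0638). With E2, Oasl2 had 62.1, 63.9 and 65.0 CPM, which overlapped vehicle, and its log2 fold change was -0.04 ± 0.033 (edgeR adjusted p = 0.379).

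Ifit1 and Ifit3 encode proteins that bind viral RNA or scaffold its sensing, and lie in one gene cluster on chromosome 19. Ifit1, at chr19:34640871-34650009 on the plus strand, had 36.8, 38.4 and 37.1 CPM with BMP2, 34.1, 36.4 and 35.2 CPM with E2, and 36.3, 36.2 and 35.0 CPM with vehicle. The BMP2 libraries lay just above the vehicle libraries, and the E2 libraries overlapped them. Its log2 fold changes were 0.06 ± 0.042 for BMP2 (edgeR adjusted p = 0.389) and -0.02 ± 0.043 for E2 (edgeR adjusted p = 0.728).

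Ifit3 had the largest log2 fold change of the 9 genes with E2. Ifit3, at chr19:34583531-34588731 on the plus strand, had 10.2, 11.0 and 11.3 CPM with E2, against 6.46, 6.78 and 7.42 CPM with vehicle. The groups were well apart, with means of 10.9 ± 0.593 and 6.88 ± 0.486 CPM. Ifit3 was 1.58-fold higher with E2, a log2 fold change of 0.66 ± 0.084 (edgeR adjusted p = 2.4e-11). With BMP2 it had 6.79, 6.20 and 6.94 CPM, which overlapped vehicle, and a log2 fold change of -0.05 ± 0.091 (edgeR adjusted p = 0.793).

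A near copy limits what the Ifit3 counts can show. Of all stretches of 50 bases in Ifit3 transcripts, 51.2% also occur in Ifit3b. How reads from them were counted depends on settings not given in the sources used here. Reads aligned to more than 1 place had a row of their own, with 23.9% to 24.4% of a library's total. Such reads were thus set aside at least in part, and how many came from Ifit3 or Ifit3b is not known. Ifit3b, listed as I830012O16Rik, had 6.86, 8.22 and 7.49 CPM with E2 and 8.07, 7.91 and 7.60 CPM with vehicle, which overlap, and its log2 fold change was -0.06 ± 0.087 (edgeR adjusted p = 0.637). With BMP2 it had 9.02, 9.18 and 9.33 CPM, above all vehicle libraries, with a log2 fold change of 0.22 ± 0.083 (edgeR adjusted p = 0.056), which passed when library sizes were not scaled by TMM factors (edgeR adjusted p = 0.0452). The ratio of Ifit3 to Ifit3b counts within a library was 1.49, 1.34 and 1.51 with E2, against 0.801, 0.857 and 0.976 with vehicle (two-sided exact permutation p = 0.1, the smallest possible). With BMP2 that ratio was 0.753, 0.675 and 0.745. When the counts of both genes were summed into one, an alternative chosen after seeing the data, the pair had 17.1, 19.2 and 18.8 CPM with E2 and 14.5, 14.7 and 15.02 CPM with vehicle. The summed pair was still higher with E2, by 0.32 on the log2 scale in place of 0.66 for Ifit3 alone (edgeR adjusted p = 1.0e-05).

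**Figure D2:**
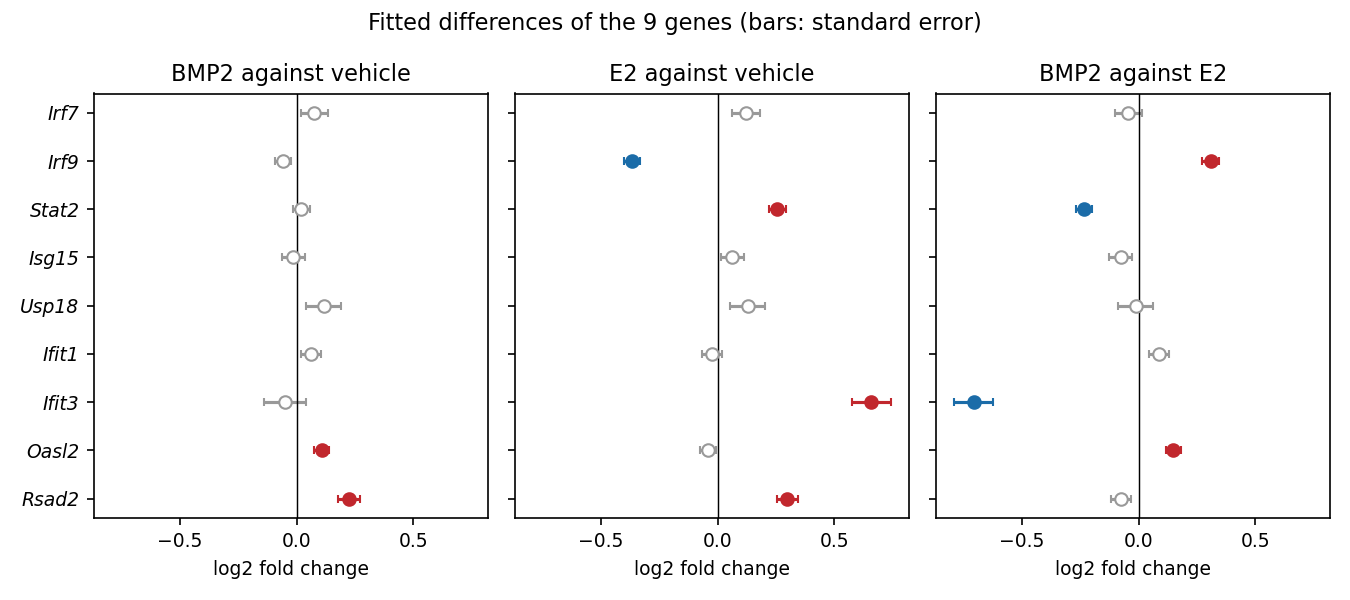
Log2 fold change (x axes) of each of the 9 interferon response genes in BMP2 against vehicle, E2 against vehicle and BMP2 against E2, with standard errors as bars. Filled points passed the test, red where higher and blue where lower, and open points did not; Ifit3 at 0.66 and Irf9 at -0.37 lie farthest from 0 in E2 against vehicle.

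Set against each other, BMP2 and E2 left 4 of the 9 genes at different levels. Irf9 was 1.24-fold higher with BMP2 than with E2, a log2 fold change of 0.31 ± 0.036 (edgeR adjusted p = 4.6e-13). Oasl2 was 1.11-fold higher with BMP2, at 70.6 ± 0.524 CPM against 63.7 ± 1.44 CPM with E2 (edgeR adjusted p = 1.0e-04). Stat2 was 1.18-fold lower with BMP2, a log2 fold change of -0.23 ± 0.035 (edgeR adjusted p = 1.1e-08). Ifit3 was 1.63-fold lower, with a log2 fold change of -0.71 ± 0.084 (edgeR adjusted p = 1.0e-12), and summing it with Ifit3b left -0.22 (edgeR adjusted p = 0.00319). These are direct tests of the difference between the treatments, so for these 4 genes the levels under BMP2 and E2 were apart by more than the spread between libraries. Rsad2, which was higher than vehicle with both, had 32.6 ± 1.18 CPM with BMP2 and 34.4 ± 1.19 CPM with E2, a log2 fold change of -0.08 ± 0.045 that did not pass (edgeR adjusted p = 0.213). The remaining 4 genes had log2 fold changes from -0.08 (Isg15, edgeR adjusted p = 0.256) to 0.09 (Ifit1, edgeR adjusted p = 0.131).

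On chromosome 19 the cluster runs in the order Ifit2, Ifit3, Ifit1bl1, Ifit3b and Ifit1, and with E2 the neighbours of Ifit3 did not pass the test. Ifit2, 7.1 kb before Ifit3, had 35.9, 37.6 and 40.1 CPM with E2 and 33.9, 36.0 and 35.9 CPM with vehicle, which overlap, with a log2 fold change of 0.10 ± 0.043 (edgeR adjusted p = 0.0526). That value lies at the threshold and passed in 7 of 16 alternative settings, among them without E2 replicate 1 (edgeR adjusted p = 0.0161), vehicle replicate 2 (edgeR adjusted p = 0.0446), vehicle replicate 3 (edgeR adjusted p = 0.0437) or BMP2 replicate 2 (edgeR adjusted p = 0.0499). Ifit1bl1, listed as Gm14446, was low, at 1.70 ± 0.497 CPM with E2 and 1.55 ± 0.136 CPM with vehicle (edgeR adjusted p = 0.658). With BMP2, Ifit2 had 39.3, 38.7 and 38.0 CPM, above all vehicle libraries, and a log2 fold change of 0.13 ± 0.043 that passed (edgeR adjusted p = 0.0195) but was lost without BMP2 replicate 1 (edgeR adjusted p = 0.0911), without vehicle replicate 1 (edgeR adjusted p = 0.162) and with DESeq2 (adjusted p = 0.0841). The 3 neighbours were named for their position after their values were seen.

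**Figure D3:**
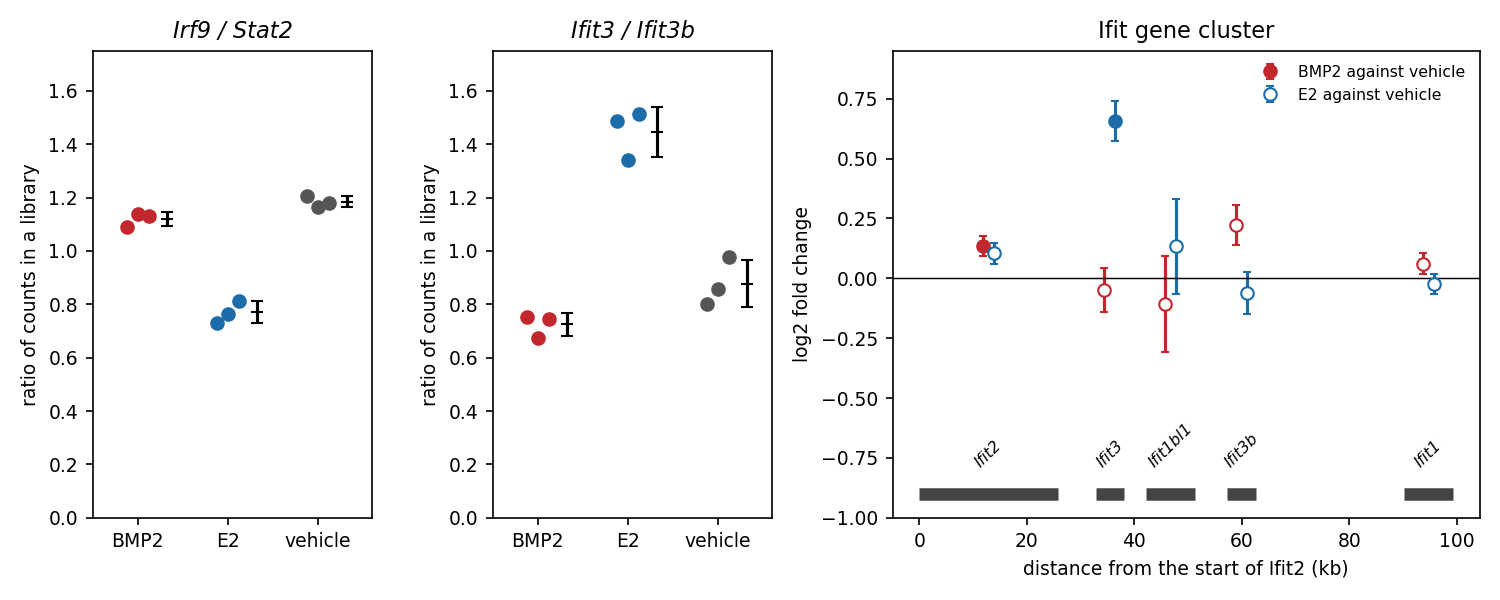
Left and middle, ratios of Irf9 to Stat2 counts and of Ifit3 to Ifit3b counts in each library (points) with mean and SD (n = 3); right, log2 fold changes with standard errors of the 5 genes of the Ifit cluster at their distance in kb from the start of Ifit2, for BMP2 (red) and E2 (blue) against vehicle, filled where the test was passed. The E2 libraries stand apart in both ratios, and Ifit3 is the one gene of the cluster with a filled E2 point.

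Per kb of annotated exon, the 9 genes kept much the same order in all groups. Isg15 was highest, with 35.9 ± 2.06 CPM per kb with BMP2, 37.9 ± 2.01 with E2 and 36.2 ± 0.864 with vehicle, followed by Ifit1 with 14.1 CPM per kb with BMP2, 13.3 with E2 and 13.5 with vehicle. Under vehicle the order went on with Irf9 (11.3 CPM per kb), Oasl2 (10.3), Stat2 (8.65), Rsad2 (6.45), Irf7 (5.18), Ifit3 (3.95) and Usp18 (3.81), and only the last pair of neighbours had overlapping libraries. With BMP2, Oasl2 (11.1 CPM per kb) and Irf9 (10.8) overlapped, as did Usp18 (4.12) and Ifit3 (3.81). With E2, Stat2 (10.3 CPM per kb) and Oasl2 (9.99) overlapped, as did Ifit3 (6.22) and Irf7 (5.64). Both Stat2 and Oasl2 lay above Irf9 (8.73) without overlap. The lengths are the summed exons of all annotated transcripts, so the order depends on which of them the ovary uses. Ifit3 was divided by its full length, although 51.2% of its stretches of 50 bases also occur in Ifit3b. Its place in the order therefore also depends on how such reads were counted.

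Transcripts of the interferons themselves were at or near the limit of detection. Of 10 interferon genes looked for, 4 (Ifna1, Ifng, Ifnl2 and Ifnl3) had 0 counts in all 9 libraries, which allows up to 0.0102 CPM from 3 counts over 293023564. All 10 together had 43 counts. Ifnb1, the interferon that most cells make first on infection, had 10 counts with BMP2, 0 with E2 (up to 0.032 CPM) and 4 with vehicle, and its highest count in a library was 7. Ifne, an interferon of the female reproductive tract, had 6 counts with BMP2, 5 with E2 and 7 with vehicle. These counts were too low to enter the test, so no comparison between groups was made, and the limits cover counting error only.

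With E2, most interferon receptor chains were lower than with vehicle. The list of other pathway genes held 121 genes found in the tables, of which 111 were tested. Of its 6 receptor chains, 4 fell with E2 and 0 rose, where 16.5% of all genes were lower. With BMP2 0 of 6 passed against vehicle, where 13.7% of all genes were called, so that count says little about so few genes. Ifnar1, the signalling chain for type I interferon, had 335, 336 and 341 CPM with E2, against 372, 382 and 387 CPM with vehicle, with no overlap. Its log2 fold change was -0.17 ± 0.020 (edgeR adjusted p = 1.0e-13). Ifnar2, the high-affinity chain, had 56.4, 55.1 and 59.6 CPM with E2 and 66.1, 67.6 and 64.5 CPM with vehicle, a log2 fold change of -0.21 ± 0.034 (edgeR adjusted p = 8.4e-08). With BMP2 the log2 fold changes were 0.00 ± 0.019 for Ifnar1 (edgeR adjusted p = 0.95) and 0.04 ± 0.033 for Ifnar2 (edgeR adjusted p = 0.441), and neither passed. In the direct comparison of BMP2 with E2, Ifnar1 was higher by 0.18 (edgeR adjusted p = 4.1e-14) and Ifnar2 by 0.26 (edgeR adjusted p = 1.1e-10) on the log2 scale.

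Of the 4 chains for the other interferon types, 2 fell with E2 and 2 did not pass. Ifngr2, of the interferon gamma receptor, had 101 ± 3.28 CPM with E2 and 116 ± 0.734 CPM with vehicle, a log2 fold change of -0.20 ± 0.027 (edgeR adjusted p = 5.5e-10). Il10rb, shared by interferon lambda and IL-10 family receptors, had 52.9 ± 0.631 CPM with E2 and 60.4 ± 1.76 CPM with vehicle, a log2 fold change of -0.19 ± 0.035 (edgeR adjusted p = 2.4e-06). Ifngr1, the ligand-binding chain for interferon gamma, had 24.2 ± 0.509 CPM with E2 and 24.5 ± 1.36 CPM with vehicle and did not pass (edgeR adjusted p = 0.837). Ifnlr1, the chain specific to interferon lambda, had 1.54 ± 0.160 CPM with E2 and 1.85 ± 0.237 CPM with vehicle, which overlap, and its log2 fold change of -0.26 ± 0.188 did not pass (edgeR adjusted p = 0.309). Ifnar2 and Il10rb share exon sequence with the gene model Gm21970 on the same strand, over 9.46% of the exon length of Ifnar2 and 14.9% of that of Il10rb. Summed macrophage markers were also lower with E2, as given above, and their part in these receptor levels was not tested.

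**Figure D4:**
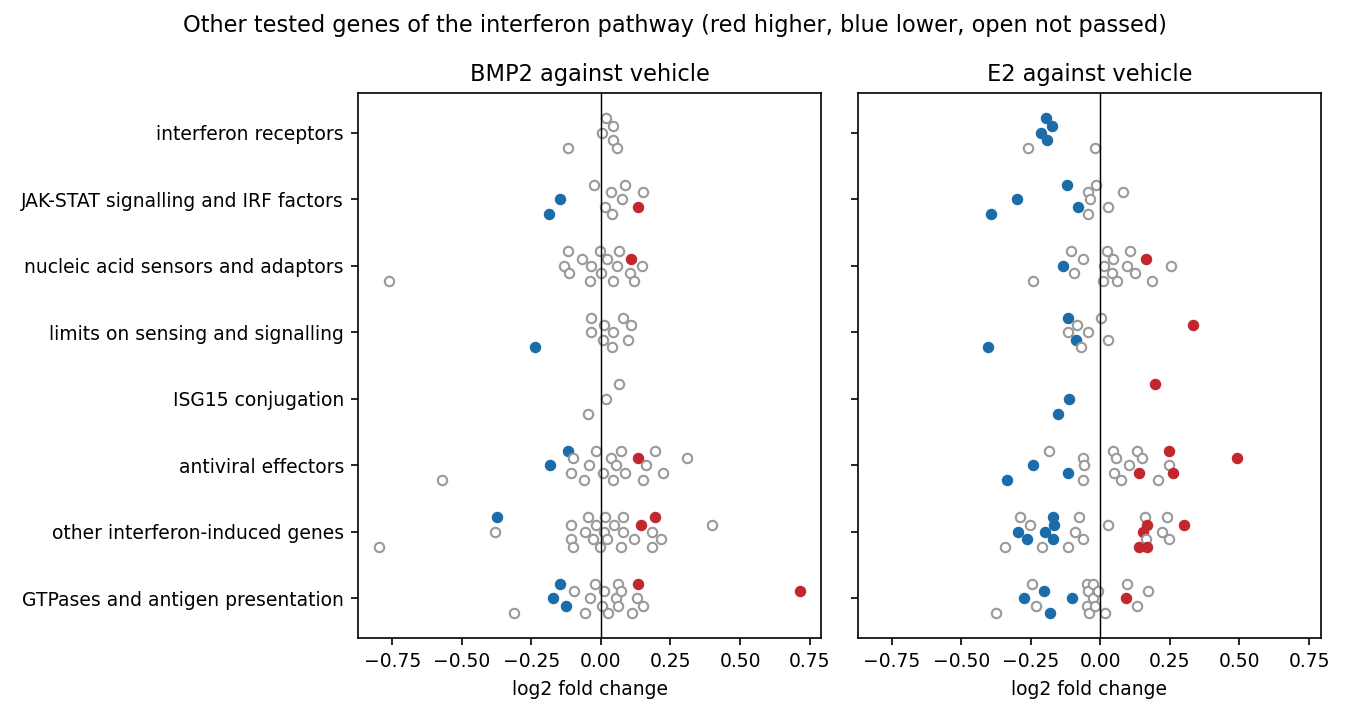
Log2 fold changes (x axes) of the tested genes of the interferon pathway list, other than the 9 genes, by role (rows) in BMP2 against vehicle and E2 against vehicle. Red points were higher and blue points lower at an adjusted p under 0.05, and open points did not pass; with E2, 4 of 6 receptors are blue and none is red.

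Signalling factors downstream of the receptors gave 0 higher and 4 lower of 10 with E2, where 32.3% of all genes were called, and 1 higher and 2 lower with BMP2, where 13.7% were. Stat3, a transcription factor of interleukin-6 family signals, fell with both: it had 113 ± 1.43 CPM with BMP2, 102 ± 2.73 CPM with E2 and 125 ± 3.94 CPM with vehicle. Its log2 fold changes were -0.15 ± 0.026 with BMP2 (edgeR adjusted p = 7.2e-06) and -0.30 ± 0.027 with E2 (edgeR adjusted p = 2.9e-19). Irf5, a regulatory factor of myeloid cells, fell by 0.39 ± 0.064 on the log2 scale with E2, at 13.6 ± 0.288 CPM against 17.8 ± 0.342 CPM with vehicle (edgeR adjusted p = 1.1e-07). Some reads of Irf5 may belong to Tnpo3, which overlaps it on the other strand.

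Irf1, a regulatory factor induced by interferon gamma, had 41.8 ± 0.794 CPM with BMP2, 35.1 ± 0.852 CPM with E2 and 38.1 ± 1.55 CPM with vehicle. It was higher with BMP2 than with E2 by 0.25 ± 0.042 on the log2 scale (edgeR adjusted p = 2.3e-07). Against vehicle it passed in opposite directions, at 0.13 with BMP2 (edgeR adjusted p = 0.0175) and -0.12 with E2 (edgeR adjusted p = 0.0215), but both calls depended on single libraries. The BMP2 call was lost without BMP2 replicate 2 (edgeR adjusted p = 0.0834) or vehicle replicate 2 (edgeR adjusted p = 0.147), and with DESeq2 (adjusted p = 0.0686). The E2 call was lost without E2 replicate 1 (edgeR adjusted p = 0.0723) or 2 (edgeR adjusted p = 0.0939) and without vehicle replicate 1 (edgeR adjusted p = 0.0796) or 3 (edgeR adjusted p = 0.114), and with DESeq2 (adjusted p = 0.0724). The kinases Jak1 and Tyk2 and the factor Irf3, which switches on Ifnb1, did not pass against vehicle. Irf3 with BMP2 was the exception when vehicle replicate 2 was left out (log2 fold change 0.13, edgeR adjusted p = 0.0109) or library sizes were not scaled by TMM factors (edgeR adjusted p = 0.0485). Jak1, for one, had 301 ± 4.15 CPM with BMP2, 291 ± 4.36 CPM with E2 and 298 ± 3.53 CPM with vehicle.

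Of 17 sensors of foreign nucleic acid and their adaptors, 1 rose and 1 fell with E2, where 32.3% of all genes were called, and 1 rose and 0 fell with BMP2, where 13.7% were. Ddx58, which encodes the RNA sensor RIG-I, had 75.6 ± 3.08 CPM with BMP2, 76.5 ± 1.83 CPM with E2 and 73.3 ± 0.642 CPM with vehicle. Ifih1, the RNA sensor MDA5, had 20.7 ± 0.295 CPM with BMP2, 19.6 ± 0.986 CPM with E2 and 19.3 ± 0.770 CPM with vehicle. Tlr3, Mb21d1 (the DNA sensor cGAS) and Tmem173 (its adaptor STING) also did not pass, with log2 fold changes from -0.13 to 0.12 against vehicle. Tmem173 passed with E2 only when E2 replicate 1 (edgeR adjusted p = 0.036) or vehicle replicate 2 (edgeR adjusted p = 0.0364) was left out. Mavs, the adaptor of RIG-I and MDA5, was the one called with BMP2, at 66.6 ± 2.87 CPM against 61.8 ± 1.21 CPM with vehicle (edgeR adjusted p = 0.0171). Leaving out BMP2 replicate 1 ended that call (edgeR adjusted p = 0.0653), as did leaving out BMP2 replicate 2 (edgeR adjusted p = 0.166), vehicle replicate 1 (edgeR adjusted p = 0.0509) or vehicle replicate 2 (edgeR adjusted p = 0.0793), and DESeq2 (adjusted p = 0.0753). Trim25, a ubiquitin ligase that activates RIG-I, was the one that fell with E2, at 105 ± 3.14 CPM against 115 ± 6.61 CPM with vehicle (edgeR adjusted p = 5.0e-05).

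Genes that restrain sensing or signalling gave 1 higher and 3 lower of 10 with E2, and 0 higher and 1 lower with BMP2, near the 32.3% and 13.7% of all genes called in these comparisons. Socs3, an inhibitor of JAK kinases, fell with E2 to 7.62, 7.68 and 6.76 CPM, against 10.6, 8.98 and 9.52 CPM with vehicle, a log2 fold change of -0.40 ± 0.085 (edgeR adjusted p = 4.2e-05). With BMP2 it had 11.0, 9.99 and 9.79 CPM, which overlapped vehicle. Trim30a, an inhibitor of innate sensing in the mouse, rose 1.26-fold with E2, at 20.2 ± 0.571 CPM against 16.1 ± 1.29 CPM with vehicle (edgeR adjusted p = 1.8e-06). Adar, which edits double-stranded RNA, had 71.4 ± 1.40 CPM with E2 and 75.8 ± 2.67 CPM with vehicle. It passed (edgeR adjusted p = 0.0258), but not without E2 replicate 2 (edgeR adjusted p = 0.0942) or 3 (edgeR adjusted p = 0.11), vehicle replicate 2 (edgeR adjusted p = 0.236), or with DESeq2 (adjusted p = 0.0842). Socs1, an inhibitor of JAK kinases at the interferon receptors, had 3.58 ± 0.214 CPM with BMP2, 3.38 ± 0.203 CPM with E2 and 3.31 ± 0.198 CPM with vehicle and did not pass. With BMP2 the gene that fell was Rnaseh2b, a subunit of the enzyme that removes ribonucleotides from DNA, at 25.9 ± 0.527 CPM against 30.5 ± 1.77 CPM with vehicle (edgeR adjusted p = 7.6e-05).

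The 3 genes for attaching ISG15 all changed with E2, though Isg15 and Usp18 did not pass. Uba7, the activating enzyme, fell by 0.15 ± 0.050 on the log2 scale (edgeR adjusted p = 0.0119), a call lost without vehicle replicate 2 (edgeR adjusted p = 0.0936). Ube2l6, the conjugating enzyme, fell by 0.11 ± 0.031 (edgeR adjusted p = 0.00226). Herc6, the ligase for ISG15 in the mouse, rose to 38.1, 36.8 and 36.9 CPM with E2, against 32.0, 32.6 and 32.9 CPM with vehicle, a log2 fold change of 0.20 ± 0.044 (edgeR adjusted p = 1.0e-04). With BMP2 0 of these 3 genes passed against vehicle, and 3 genes are too few to set against the shares of all genes. They were named as a whole group after their values were seen.

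Of 20 other antiviral effectors, 4 were higher and 3 lower with E2, and 1 was higher and 2 lower with BMP2, near the 32.3% and 13.7% of all genes called. Bst2, or tetherin, which holds virus particles at the cell surface, had 102, 99.5 and 96.1 CPM with E2, against 85.1, 82.0 and 81.3 CPM with vehicle. It rose with E2 (log2 fold change 0.26 ± 0.030, edgeR adjusted p = 2.4e-13), and with BMP2 it had 82.2, 88.7 and 87.0 CPM and did not pass (edgeR adjusted p = 0.257). Ifitm1 and Ifitm2, membrane proteins that block virus entry and of which Ifitm1 also marks early germ cells, fell with E2. Ifitm1 had 114, 109 and 108 CPM with E2 and 133, 134 and 151 CPM with vehicle (log2 fold change -0.33 ± 0.035, edgeR adjusted p = 5.3e-09), and with BMP2 it fell to 123 ± 2.99 CPM (edgeR adjusted p = 3.0e-04). Ifitm2 had 134 ± 3.80 CPM with E2 and 158 ± 1.76 CPM with vehicle (edgeR adjusted p = 2.3e-16), and 40.9% of its exon length is shared with the gene model Gm45717 on the same strand.

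The last 2 groups were other interferon-induced genes, with 5 higher and 6 lower of 25 with E2 and 2 higher and 1 lower with BMP2, and GTPases and antigen presentation, with 1 higher and 4 lower of 20 with E2 and 2 higher and 3 lower with BMP2. These counts too stand beside 32.3% of all genes called with E2 and 13.7% with BMP2. Gbp2, a guanylate-binding GTPase of the defence against intracellular pathogens, had 183 ± 1.73 CPM with BMP2, 165 ± 1.41 CPM with E2 and 200 ± 3.93 CPM with vehicle. It fell by 0.13 ± 0.022 with BMP2 (edgeR adjusted p = 2.7e-06) and by 0.28 ± 0.022 with E2 (edgeR adjusted p = 2.8e-22), both on the log2 scale. B2m, the light chain of MHC class I, had 237 ± 2.28 CPM with BMP2, 228 ± 2.55 CPM with E2 and 262 ± 7.04 CPM with vehicle, and was lower than vehicle with BMP2 (edgeR adjusted p = 6.8e-09) and with E2 (edgeR adjusted p = 2.5e-15). Xaf1, a promoter of cell death, fell 1.29-fold with BMP2 (edgeR adjusted p = 1.1e-06) and 1.23-fold with E2 (edgeR adjusted p = 4.8e-05), to 14.2 ± 0.377 CPM with BMP2 and 14.96 ± 1.34 CPM with E2, against 18.4 ± 0.595 CPM with vehicle. Parp14, an ADP-ribosyltransferase, rose to 44.3 ± 1.29 CPM with BMP2 (edgeR adjusted p = 8.3e-05) and to 42.7 ± 0.766 CPM with E2 (edgeR adjusted p = 0.00377), against 38.7 ± 1.04 CPM with vehicle.

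The chemokines Cxcl9 and Cxcl10, which draw T cells to inflamed tissue, were higher with BMP2. Cxcl9 had 2.05, 2.27 and 2.32 CPM with BMP2, against 1.23, 1.56 and 1.27 CPM with vehicle, a 1.64-fold rise (log2 fold change 0.72 ± 0.184, edgeR adjusted p = 0.00273). Cxcl10 had 47.9 ± 2.22 CPM with BMP2, 38.6 ± 0.534 CPM with E2 and 43.7 ± 0.621 CPM with vehicle. It was higher with BMP2 than with E2 by 0.31 ± 0.040 on the log2 scale (edgeR adjusted p = 2.3e-11) and lower with E2 than with vehicle (edgeR adjusted p = 1.4e-04). Its rise with BMP2 over vehicle passed (edgeR adjusted p = 0.0102), but not without BMP2 replicate 2 (edgeR adjusted p = 0.0697) or 3 (edgeR adjusted p = 0.0854).

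Over the whole list, 7 genes were higher and 9 lower of 111 with BMP2, or 14.4% called, beside the 13.7% of all genes given above, and with DESeq2 3 were higher and 7 lower. With E2, 13 were higher and 27 lower, or 36.0% called, beside 32.3%. In BMP2 against E2, 27 were higher and 12 lower, or 35.1% called, beside 28.2%. The shares called with each treatment against vehicle are thus near those of all genes. The lower calls outnumber the higher ones with E2, where the shares of all genes higher and lower were close to each other. The median log2 fold change of the list was 0.02 for BMP2 and -0.04 for E2.

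Interferon-induced transcripts are plentiful in immune cells, so marker genes of these cells are given beside the results. Foxl2, of pregranulosa cells, had 55.7 to 66.0 CPM over all libraries, and Ddx4, of germ cells, had 173 to 192 CPM. Markers of testis supporting cells (4 genes, with Sry at 0) summed to 10.2 to 10.8 CPM with BMP2. Their sums were 8.25 to 9.46 CPM with E2 and 10.8 to 12.3 CPM with vehicle. Summed over 14 macrophage markers, the level with BMP2 was 150 to 154 CPM, beside the E2 and vehicle ranges given above. With E2, 7 of the 13 that could be tested were lower and 0 higher than with vehicle, and with BMP2 0 passed. Mrc1, the mannose receptor of resident macrophages, had 11.0 ± 0.374 CPM with E2 and 14.5 ± 0.570 CPM with vehicle. The general leukocyte markers (5 genes) summed to 27.3 to 28.8 CPM with BMP2, 21.5 to 26.5 CPM with E2 and 26.7 to 30.2 CPM with vehicle, and 2 of 5 were lower with E2. Of all genes tested, 15.8% were higher and 16.5% lower with E2, and 13.7% were called with BMP2.

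Neutrophil markers (11 genes) summed to 52.6 to 53.0 CPM with BMP2, 59.2 to 65.3 CPM with E2 and 81.6 to 84.2 CPM with vehicle, but their members did not all follow the sum: 3 of 11 were higher and 6 lower with BMP2 than with vehicle, and 0 were higher and 6 lower with E2. Lymphocyte and NK cell markers (10 genes) summed to at most 2.32 CPM in any library, with Ncr1 at 0. Markers of plasmacytoid dendritic cells, which make much interferon, summed to 7.25 to 9.02 CPM with BMP2, 12.2 to 12.6 CPM with E2 and 6.74 to 8.13 CPM with vehicle. Most of that E2 excess was Klk1, at 6.63 ± 0.510 CPM with E2 and 1.11 ± 0.550 CPM with vehicle, while the defining marker Siglech had 9 counts over all libraries, at most 0.127 CPM in one. Endothelial markers summed to between 206 and 219 CPM in every library, although 5 of 6 were higher and 1 was lower with E2 than with vehicle, and 2 were higher and 0 lower with BMP2. Erythroid markers summed to 112 to 116 CPM with BMP2, 136 to 141 CPM with E2 and 109 to 115 CPM with vehicle, with 2 of the 5 tested higher with BMP2 and 5 of 5 higher with E2. Pregranulosa cell markers (7 genes) summed to 1942 to 1954 CPM with BMP2, 1744 to 1770 CPM with E2 and 1908 to 1959 CPM with vehicle, with 3 higher and 1 lower with BMP2 and 2 higher and 2 lower with E2. Germ cell markers (6 genes) summed to 961 to 991 CPM with BMP2, 976 to 989 CPM with E2 and 916 to 977 CPM with vehicle, and 4 of 6 were higher and 0 lower with each treatment than with vehicle. All these counts of markers stand beside 15.8% of all genes higher and 16.5% lower with E2. With BMP2 the shares of all genes were 6.84% higher and 6.85% lower. The marker lists are short, and none was tested as a set. The part of these cell types in the levels of the interferon response genes was not tested.

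The 9 genes did not follow one profile over the 9 libraries. From the mean centred log2 profile of all 9, single genes lay at root mean square distances of 0.072 (Isg15) to 0.29 (Ifit3), with Irf9 at 0.21. The genes outside the pathway nearest to that mean, among 13337 compared, were Sbf2, Eea1, Usp8, Tnks2 and Pak2, at distances of 0.013 to 0.016. They were picked as the closest and had means of 114 to 431 CPM, above those of the 9 genes. Their distances therefore cannot be set against those of the 9. The mean profile itself, centred over all libraries, was -0.01 to 0.01 with BMP2, 0.04 to 0.09 with E2 and -0.06 to -0.05 with vehicle on the log2 scale. That mean is not a shift shared by all 9 genes. In E2 against vehicle, 6 of them lay above 0 and 3 below, from 0.66 for Ifit3 to -0.37 for Irf9.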

How the data were processed

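The authors deposited raw read counts for each gene, in 1 table per library for 9 libraries. Per the submitters' processing notes, the authors used TopHat2, HTSeq and DESeq2 with build mm10, and no versions are given there. Neither the annotation nor the strand setting behind the counts is given in the sources used here. Per the labels' protocols, RNA with an integrity number over 9 went into Illumina TruSeq RNA v2 libraries, a kit that does not mark strand. Rows for reads given to no gene held 38.2% to 39.7% of a library's total and were left out. No label field states the treatment, so each library's group rests on the start of its title: E2, B2 (taken as BMP2) and C (taken as vehicle).

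The test was that of edgeR 4.0.16 (R 4.3.3). The default filter (minimum count 10, minimum total 15) kept 16360 genes. TMM factors and 1 robust quasi-likelihood model over 9 libraries were used, with 6 residual degrees of freedom, and an F test per pair of groups. Standard errors are the log2 fold change over the square root of F. Coordinates and exon lengths are from GENCODE vM21 on GRCm38, the assembly of mm10. On simulated counts for BMP2 against vehicle (16250 genes, 50 changed at each size), the test recovered 50% of genes changed 1.1-fold, 82% of those changed 1.2-fold and 96% of those changed 1.5-fold, and 8 of 16050 unchanged genes were called. The simulated spread was the one estimated from these same libraries, and genes at the lowest levels were left unchanged. These shares therefore say nothing about spread between cultures or animals.

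The 9 genes, the pathway list and the markers were chosen with earlier results of these data known. Named genes are the 9, a fixed set of 20 pathway genes, up to 8 more called ones per comparison by p-value, and the 5 nearest profiles (log2 of CPM plus 0.1). Others are marked as chosen after their values were seen or stand as markers. Alternatives were DESeq2 1.42.0, other scalings, filters and thresholds, only the groups compared, a replicate block, and each library left out in turn. One gene of the pathway list is counted there but not reported here by name.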

Additional observations from a re-analysis of the deposited data

How the results depend on the processing

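The counts of called genes changed by more than 1.5 times in BMP2 against vehicle alone among the 3 comparisons. The called number of the 9 interferon response genes there was 1 at an adjusted p under 0.01, and 1 to 2 when single libraries were left out. DESeq2 called 10 of the pathway list and 1385 of all genes, and a threshold of 0.01 left 9 and 1318. Leaving out single libraries gave 12 to 19 of the list and 1631 to 2235 of all genes. With E2 against vehicle the same step gave 4 to 5 of the 9 genes, 31 to 44 of the list and 4520 to 5316 of all genes, and in BMP2 against E2 it gave 4 to 4, 31 to 40 and 3938 to 4848. Over 51 named genes, 3 comparisons and all settings, 2381 of 2451 values kept their call, 46 lost one and 24 gained one, and 0 called values changed sign. Of 435 such values of the 9 genes, 3 changed their call, those of Oasl2 and Irf7 named above. Replicate numbers were not found to pair libraries: deviations of libraries with the same number correlated at -0.0243 to 0.0231. With the replicate number as a block, 2, 4 and 4 of the 9 genes were called in BMP2 against vehicle, E2 against vehicle and BMP2 against E2, and 18, 41 and 40 of the list; 3 of 153 calls of named genes changed, none of them among the 9. Under other scalings the median of all genes moved to at most 0.0126 on the log2 scale. How reads shared with Ifit3b were counted limits the Ifit3 value, and counts of the interferon genes were too low to enter the test.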
